A study of Gallus gallus with 48 samples.

Results

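SEL1L, SDF2L1 and BFAR are 3 genes of the endoplasmic reticulum (ER), grouped here under the quality of proteins made there. The group name is a label and not a result of these data. They were followed in chicken RNA-seq libraries as 3 of the 17108 genes of the expression table, and they were found through the gene symbols that a supplementary gene list of the study pairs with Ensembl IDs. In this way SEL1L is ENSGALG00000010581 on chromosome 5, SDF2L1 is ENSGALG00000001435 on chromosome 15, and BFAR is ENSGALG00000003111 on chromosome 14 of the galGal4 assembly. The list gave a symbol to 1182 genes of the table. The study describes it as a list of genes under positive selection in chicken breeds. All genes named or matched by symbol below come from that list, so they are not a sample of all genes.

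The table holds 48 libraries of Gallus gallus brain, heart, liver and lung, and each tissue has 4 groups of 3 libraries. TC stands for Tibetan chickens at 3300 m, HLC for lowland chickens at 3300 m, LTC for Tibetan chickens at 670 m and LC for lowland chickens at 670 m. The codes HLC and LTC are not spelled out by the labels and were read from their letters and the altitude. No age, sex, breed of the lowland birds or time at altitude is given in the sources used here, and nothing says whether libraries of a group, or same-numbered libraries of different tissues, came from separate animals, so that p-values measure the spread between these libraries. The design allows 3 comparisons within a tissue, namely altitude (TC and HLC against LTC and LC), chicken type (TC and LTC against HLC and LC) and their interaction. The interaction sets the altitude difference of Tibetan chickens against that of lowland chickens. Libraries from 3300 m and 670 m may also differ in site, husbandry or batch, and altitude cannot be told apart from these. Rising or falling with altitude describes this comparison only.

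SEL1L is the adaptor protein that holds substrates at the HRD1 ubiquitin ligase, the core of ER-associated degradation, in which misfolded proteins are moved out of the ER and broken down by the proteasome. SDF2L1 is a small protein of the ER lumen that works with the BiP chaperone and its co-chaperone ERdj3, and in mammals its gene is a target of the unfolded protein response. BFAR, the bifunctional apoptosis regulator, is known from human cells as a ubiquitin ligase of the ER membrane with a RING domain. The liver secretes most plasma proteins, so its cells carry a large load of protein folding in the ER.

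Expression was given as FPKM, a read density that corrects for transcript length and library size and allows levels of different genes to be set side by side. The values carry no counts of reads, and so neither the sequencing depth nor a counting error can be stated. The library sums lay between 452395 and 896066 FPKM, and between 8498 and 11325 genes had at least 1 FPKM. Each library was more like those of its own tissue (mean r over genes of 0.936 to 0.977) than those of other tissues (0.543 to 0.691). Marker genes went with the tissue labels in brain (9 neuron markers summing to 447 to 753 FPKM, led by STMN2), heart (7 cardiomyocyte markers at 755 to 1484, led by ACTN2) and liver (6 hepatocyte markers at 3572 to 16322, led by FABP1, with OTC at 0 in every liver library). The 4 epithelial markers matched for lung, led by CDH1, summed to 19.9 to 84.1 FPKM in lung and to 44.9 to 90.6 in liver, so they do not mark the lung libraries, and none of the erythrocyte markers had a symbol.

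All 3 genes were expressed above 1 FPKM in all 48 libraries. SEL1L had its highest median in lung at 22.2 FPKM, followed by 17.3 in liver, 11.4 in brain and 9.05 in heart. SDF2L1 stood at medians of 18.2 FPKM in brain, 17.0 in lung, 16.9 in liver and 6.80 in heart. BFAR was the lowest of the 3 in every tissue, with medians of 14.6 FPKM in lung, 5.66 in liver, 4.05 in brain and 3.78 in heart. Among the genes kept in a tissue these medians placed SEL1L between the 58.8 and 77.0 percentile, SDF2L1 between the 52.4 and 76.5 percentile, and BFAR between the 27.9 percentile in brain and the 63.6 percentile in lung.

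Tissues next to each other in this order were compared with limma on log2(FPKM + 1) over all 13353 genes tested, a scale on which the change of a low gene is understated. Tissues differ at most genes, and 86.6% of genes passed between liver and lung, 85.7% between brain and liver and 80.0% between brain and heart. Between brain and lung 83.9% passed, and between heart and liver 72.2%. The directions were uneven. In liver 9640 genes were called lower and 1921 higher than in lung. In brain 7552 were higher and 3137 lower than in heart, and 8366 higher and 3076 lower than in liver. In heart 6002 were higher and 3636 lower than in liver, and in brain 4696 were higher and 6505 lower than in lung. SEL1L was lower in liver than in lung by a log2 difference of -0.71 (SE 0.15, adjusted p = 4.3e-05) and higher in brain than in heart by 0.43 (adjusted p = 0.0089), while brain and liver differed by -0.31 (adjusted p = 0.051). Neither SEL1L call outlived rescaling of the libraries. With quantile normalization over the 48 libraries the liver to lung difference was 6.1e-05 and the brain to heart difference -0.20.

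SDF2L1 was lower in heart than in liver by -1.30 on the log2 scale (SE 0.11, adjusted p = 3.3e-13), and its heart libraries lay below those of brain and of lung without overlap. Brain, lung and liver could not be told apart beyond their spread, with 0.07 between brain and lung (adjusted p = 0.55) and 0.21 between liver and lung (adjusted p = 0.077). The latter reached 0.88 after quantile normalization (adjusted p = 5.28e-10), so the place of liver among the 3 rests on the scaling. BFAR was lower in liver than in lung by -1.34 (SE 0.07, adjusted p = 2.0e-19), and all 12 lung libraries lay above all others. How many genes separate by tissue without overlap was not counted. Brain was below liver by -0.26 (adjusted p = 0.0012), and the difference of 0.11 between brain and heart did not pass (adjusted p = 0.16) and turned to -0.60 after quantile normalization (adjusted p = 8.69e-11).

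**Figure D1:**
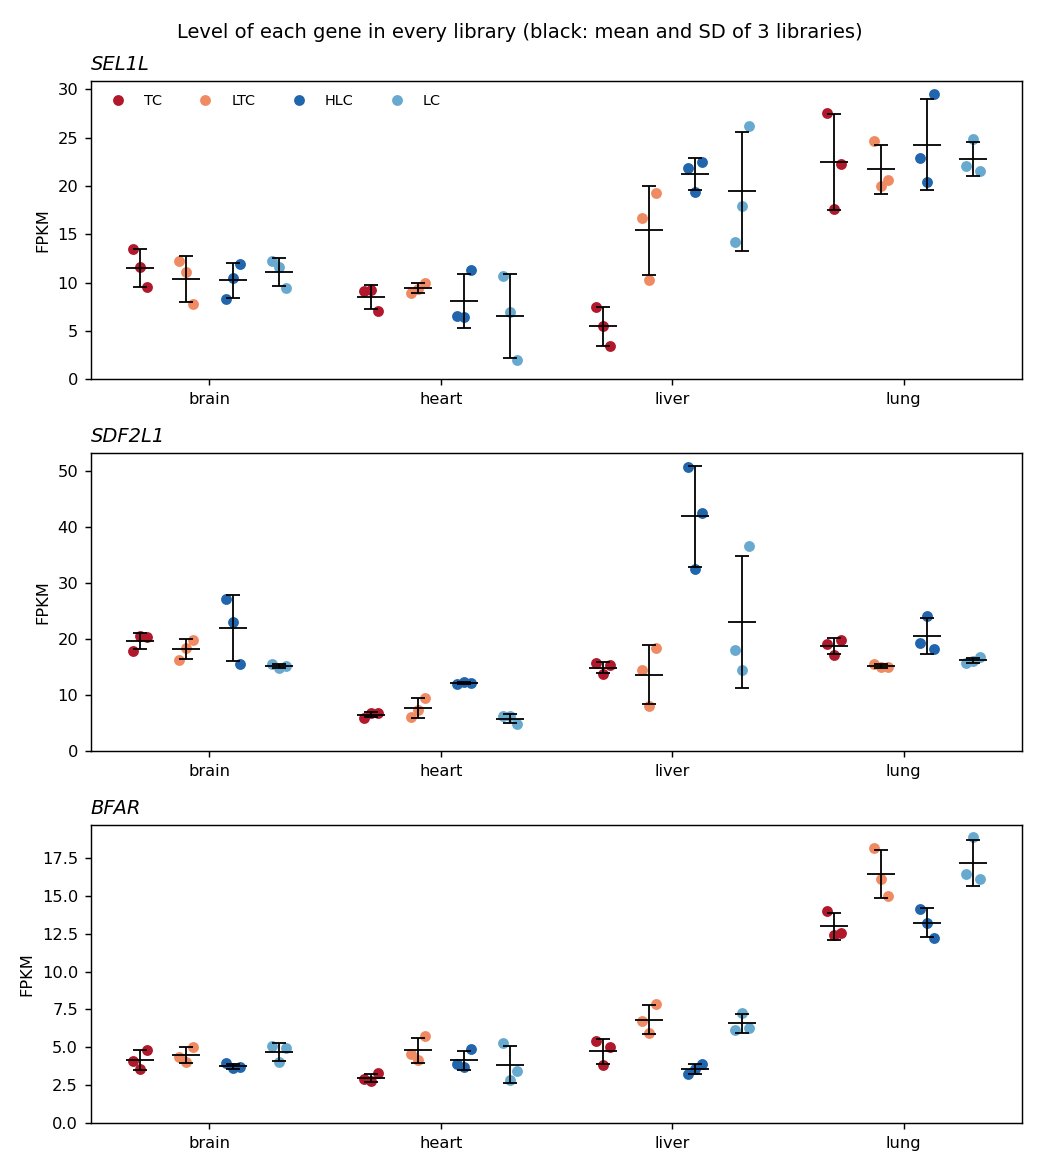
FPKM of SEL1L, SDF2L1 and BFAR (y axis, 1 panel per gene) in every library of brain, heart, liver and lung (x axis), coloured by group, with black bars for the mean and SD of 3 libraries. SEL1L in the liver of TC lies between 3.44 and 7.52 FPKM, SDF2L1 in the liver of HLC between 32.6 and 50.7 FPKM, and BFAR in lung lies above its level in the other tissues.

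SEL1L in liver was low in 1 group. The TC libraries had 7.52, 5.48 and 3.44 FPKM, the LTC libraries 16.7, 10.3 and 19.26, the HLC libraries 21.9, 19.34 and 22.5, and the LC libraries 14.2, 18.0 and 26.2. All 3 TC libraries lay below each of the other 9. The share of all liver genes that separate in this way was not counted. The LTC libraries in turn lay below the HLC libraries, by a narrow margin, and the LC libraries overlapped with both. The group means were 5.48 ± 2.04 FPKM in TC, 15.4 ± 4.60 in LTC, 21.2 ± 1.68 in HLC and 19.4 ± 6.14 in LC (SD, n = 3).

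What had singled out SEL1L and SDF2L1 was reconstructed from the rule by which an earlier analysis named genes. By that rule SEL1L had the largest lower value in the chicken type comparison of liver among genes with a symbol. SDF2L1 was the third in that order. On this reading both genes were chosen by these values, which are given here as a description. For SEL1L the log2 difference was -1.07 between Tibetan and lowland chickens, -1.83 between TC and HLC and -0.32 between LTC and LC. For SDF2L1 the corresponding values were -1.04, -1.41 and -0.68. The values between LTC and LC moved with single libraries, since leaving out LTC replicate 2 or LC replicate 3 brought them to -0.07 and -0.09 for SEL1L and to -0.37 and -0.30 for SDF2L1. Of all genes in liver, 8.58% passed the threshold as lower in the type comparison and 24.0% as lower in TC than in HLC.

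By the reconstructed rule neither gene was named for altitude or for the interaction in liver. The interaction is, however, the difference between the TC minus HLC value and the LTC minus LC value given above. Both comparisons also use the same libraries and the same estimate of spread, so their tests cannot be taken as independent of that choice. The altitude difference of SEL1L in Tibetan chickens was -1.35 on the log2 scale (SE 0.28, adjusted p = 0.0024 in limma), and this call held without any single library and under every other processing tried. In lowland chickens the difference was 0.16 (95% interval -0.45 to 0.77, adjusted p = 0.73). The interaction was therefore -1.51 (SE 0.40, adjusted p = 0.030), and the altitude difference over both types was -0.59 (SE 0.20, adjusted p = 0.026).

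These calls stand among many in liver. The share of genes called lower was 41.3% between TC and LTC, 41.6% for altitude and 10.1% for the interaction. The median of all genes was -0.36 between TC and LTC, -0.25 for altitude and -0.20 for the interaction, and quantile normalization brought it to -0.02, -0.002 and -0.02. SEL1L lay below these medians, at the 3.92, 18.7 and 1.81 percentile of all genes. The interaction of SEL1L missed the threshold after quantile normalization (-1.29, adjusted p = 0.082), after upper quartile scaling (-1.39, adjusted p = 0.052), with no filter on low genes (adjusted p = 0.050) and on leaving out any 1 library other than HLC replicate 1, LC replicate 3, LTC replicate 2 and TC replicate 1 (adjusted p up to 0.073). Its altitude call was lost with both scalings (-0.38, adjusted p = 0.17, and -0.40, adjusted p = 0.15) and without HLC replicate 2, LC replicate 3, LTC replicate 1, LTC replicate 3 or TC replicate 3 (adjusted p up to 0.064).

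The livers also differed between groups in other features, and only some of these set TC apart. The 6 hepatocyte markers summed to 13256 to 16322 FPKM in TC against 4005 to 4517 in HLC, 3572 to 5180 in LTC and 4311 to 4828 in LC. Nearly all of this sum was FABP1, the liver fatty acid binding protein, at 13019 to 16058 FPKM in TC. Of the other hepatocyte markers, FTCD (91.3 to 130 FPKM) and HAAO (51.0 to 52.3 FPKM) also had their highest medians in TC, and LCAT (79.6 to 92.8 FPKM) and SLC25A47 (1.09 to 2.90 FPKM) their lowest. The number of genes with at least 1 FPKM was 8498 to 8839 in TC against 8858 to 9675 in the other groups, and the upper quartile of expressed genes was 8.31 to 10.4 FPKM against 10.6 to 12.2. Lymphocyte markers (7 matched) summed to 11.0 to 16.3 FPKM in TC and 11.8 to 14.9 in HLC against 20.6 to 28.3 in LTC and 25.9 to 28.1 in LC, and macrophage markers (3 matched) to 16.7 to 28.7 in TC, 10.5 to 16.9 in HLC, 20.6 to 39.5 in LTC and 24.3 to 32.3 in LC. The 4 epithelial markers led by CDH1 summed to 44.9 to 52.2 FPKM in TC, below each other group, and to 54.4 to 67.1 in LTC, 66.3 to 77.1 in LC and 80.7 to 90.6 in HLC. Their part in the results for SEL1L, SDF2L1 and BFAR in liver was not tested. In bulk tissue, fewer cells that express a gene and less of its RNA per cell cannot be told apart.

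Outside liver SEL1L gave no call in any comparison of groups. In lung the levels ranged from 17.6 FPKM in a TC library to 29.5 in an HLC library, with group means between 21.7 ± 2.52 in LTC and 24.3 ± 4.70 in HLC. In brain they ranged from 7.75 to 13.5 FPKM. Within Tibetan chickens the altitude difference was 0.03 in lung (95% interval -0.34 to 0.40), 0.15 in brain (95% interval -0.26 to 0.56) and -0.14 in heart (95% interval -0.995 to 0.72). These intervals do not reach the -1.35 of Tibetan liver, but the heart interval overlaps with that of liver (95% interval -1.96 to -0.74). The difference between tissues was not tested. Heart was the most variable, and its 3 LC libraries had 10.7, 6.97 and 2.04 FPKM.

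SDF2L1 in liver was high in the lowland chickens at 3300 m. The HLC libraries had 50.7, 32.6 and 42.6 FPKM, against 18.1, 14.6 and 36.6 in LC, 15.7, 13.8 and 15.3 in TC, and 14.5, 8.11 and 18.5 in LTC. The HLC libraries stood above all TC and LTC libraries, and LC replicate 3 reached into their range. How many liver genes have HLC above TC and LTC in this way was not counted. Group means were 42.0 ± 9.07 in HLC, 23.1 ± 11.9 in LC, 14.9 ± 0.97 in TC and 13.7 ± 5.22 in LTC (SD, n = 3).

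None of the liver comparisons of SDF2L1 outside those of its reconstructed choice passed the threshold. The altitude difference was 0.55 (SE 0.23, adjusted p = 0.065), where 9.74% of genes were called higher, and it passed after quantile normalization (0.72, adjusted p = 0.037), after upper quartile scaling (0.76, adjusted p = 0.022), with the replicate number as a block (adjusted p = 0.0225), in a fit of all 48 libraries (adjusted p = 0.0040) and without LC replicate 3 or LTC replicate 3. Within lowland chickens the difference was 0.92 (SE 0.33, adjusted p = 0.075), where 16.6% of genes passed in either direction. It passed with the replicate block (adjusted p = 0.033), in the fit of all 48 libraries (adjusted p = 0.0029) and without LC replicate 3 (1.29, adjusted p = 0.022). Within Tibetan chickens it was 0.19 (95% interval -0.53 to 0.90), and the interaction of -0.73 had an interval from -1.75 to 0.28 (adjusted p = 0.30), with -0.47 without LC replicate 2 and -1.11 without LC replicate 3.

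In heart SDF2L1 was again highest in HLC. The HLC libraries had 12.03, 12.33 and 12.18 FPKM, the LC libraries 6.26, 6.25 and 4.85, the TC libraries 5.997, 6.80 and 6.79, and the LTC libraries 6.13, 7.40 and 9.56. The 3 HLC libraries lay above all other 9 heart libraries, with a mean of 12.2 ± 0.15 FPKM against 5.79 ± 0.81 in LC (SD, n = 3). How many heart genes separate in this way was not counted. The interaction was -1.15 on the log2 scale (SE 0.26, adjusted p = 0.042), and SDF2L1 was lower in TC than in HLC by -0.81 (SE 0.18, adjusted p = 0.031). The shares of genes called lower were 2.60% for the interaction and 5.88% between TC and HLC. By log2 difference SDF2L1 lay at the 11.7 percentile of all heart genes for the interaction and at the 12.1 percentile between TC and HLC.

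The median of all genes stood at -0.47 for the heart interaction and at -0.21 between TC and HLC, and quantile normalization moved these medians to 0.03 and 0.03. The SDF2L1 interaction then was -0.65 (adjusted p = 0.26), and -0.77 after upper quartile scaling (adjusted p = 0.19). It also missed the threshold with no filter (adjusted p = 0.056), with the replicate block (adjusted p = 0.084) and without any 1 of the 12 libraries other than LC replicate 3 and TC replicate 2 (-1.29 to -1.01, adjusted p up to 0.11). The TC against HLC call was lost with both scalings, with the block (adjusted p = 0.062) and without any single HLC or TC library. Between HLC and LC the difference was 0.96 (SE 0.18, adjusted p = 0.071, with 0.0386% of genes passing), and in the fit of all 48 libraries it passed (adjusted p = 0.0068). Lymphocyte markers in heart summed to 3.40 to 45.8 FPKM in HLC against 2.15 to 13.8 in the other groups, and macrophage markers to 26.0 to 69.6 against 16.7 to 53.0, and their part was not tested. The altitude difference in heart was 0.39 (adjusted p = 0.78), and that within Tibetan chickens was -0.19 (adjusted p = 0.61).

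In lung SDF2L1 rose at 3300 m in a narrow range. The high altitude libraries had 19.3, 24.2 and 18.3 FPKM in HLC and 19.2, 17.2 and 19.8 in TC, and the low altitude libraries 15.8, 16.1 and 16.8 in LC and 15.6, 15.1 and 14.96 in LTC. The lowest of the 6 libraries from 3300 m was above the highest of the 6 from 670 m. The share of all lung genes that separate in this way was not counted. The mean was 19.7 ± 2.41 FPKM against 15.7 ± 0.68 (SD, n = 6), a log2 difference of 0.30 (SE 0.08, adjusted p = 0.024). For altitude in lung, 5.57% of genes were called higher, and the median of all genes was -0.04. The call was lost in the fit of all 48 libraries (adjusted p = 0.21) and without LC replicate 1, LTC replicate 2 or LTC replicate 3 (adjusted p up to 0.057).

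The lung difference of SDF2L1 was alike in size in the 2 chicken types, 0.28 in Tibetan (adjusted p = 0.11) and 0.32 in lowland chickens (adjusted p = 0.13, with 3.89% of genes passing), and the interaction was -0.04 (95% interval -0.37 to 0.30). Neither simple difference passed by itself, but the Tibetan one did after quantile normalization (0.35, adjusted p = 0.042) and after upper quartile scaling (0.35, adjusted p = 0.045). In brain the HLC libraries had 27.2, 23.1 and 15.6 FPKM and the LC libraries 15.5, 14.9 and 15.3, next to 18.0, 20.6 and 20.4 in TC and 16.3, 18.4 and 19.9 in LTC. The brain differences were 0.29 for altitude (adjusted p = 0.25, with 2.26% of genes passing) and 0.47 between HLC and LC (adjusted p = 0.27, with 0.146% of genes passing). Both passed once HLC replicate 3, the lowest of its group, was left out (adjusted p = 0.029 and 0.033). Without that library the calls among all brain genes also rose, from 263 to 593 for altitude and from 17 to 194 between HLC and LC. SDF2L1 thus had a higher mean in HLC than in LC in all 4 tissues, and no tissue passed the threshold for this pair. The share of all genes that do so was not counted. For this pair the median of all genes was 0.22 in heart, 0.06 in brain, 0.001 in lung and -0.15 in liver. The tissues may come from the same animals, so the 4 directions may not be separate observations.

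BFAR in liver was lower at 3300 m in both chicken types. The libraries from 3300 m had 5.39, 3.82 and 4.998 FPKM in TC and 3.26, 3.58 and 3.90 in HLC, and those from 670 m had 6.71, 5.93 and 7.86 in LTC and 6.16, 7.29 and 6.28 in LC. The highest library at 3300 m stayed below the lowest at 670 m, and the share of all liver genes that separate in this way was not counted. Over 6 libraries each, the mean was 4.16 ± 0.84 FPKM at 3300 m and 6.70 ± 0.74 at 670 m (SD).

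For BFAR the altitude difference in liver was -0.59 on the log2 scale (SE 0.10, adjusted p = 0.00087), a call that was kept under every alternative, with -0.29 after quantile normalization and -0.40 after upper quartile scaling as the smallest values. It is set against 41.6% of liver genes called lower and a median of -0.25, and BFAR lay at the 19.1 percentile. Within lowland chickens the difference was -0.72 (SE 0.14, adjusted p = 0.0082, where 11.9% of genes were called lower), which was kept in all alternatives. Within Tibetan chickens it was -0.45 (SE 0.14, adjusted p = 0.021), and that call was lost after quantile normalization (-0.02, adjusted p = 0.90), after upper quartile scaling (-0.21, adjusted p = 0.18) and without LTC replicate 1, LTC replicate 3 or TC replicate 2. Between TC and LTC 41.3% of liver genes were called lower, with a median of -0.36. BFAR lay at the 43.5 percentile there, near the middle of all genes. The interaction of 0.27 did not pass (95% interval -0.17 to 0.72, adjusted p = 0.38). What led to the inclusion of BFAR among the 3 genes is not recorded, so its tests cannot be taken as independent of that choice.

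BFAR was lower at 3300 m in lung as well. The libraries from 3300 m had 14.0, 12.4 and 12.5 FPKM in TC and 14.2, 13.2 and 12.2 in HLC, and those from 670 m had 18.1, 16.1 and 15 in LTC and 16.5, 18.9 and 16.1 in LC. Again the altitudes did not overlap, where the share of all genes that do so was not counted either. The mean fell from 16.8 ± 1.44 FPKM at 670 m to 13.1 ± 0.84 at 3300 m (SD, n = 6), with a log2 difference of -0.33 (SE 0.08, adjusted p = 0.014) that was kept under all alternatives.

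Of all lung genes, 11.6% were called lower with altitude, and BFAR lay at the 15.8 percentile. The lung difference was -0.32 in Tibetan (adjusted p = 0.076) and -0.35 in lowland chickens (adjusted p = 0.090), and neither passed alone. As in liver, the lymphocyte marker sum was lower at 3300 m, with 34.4 to 38.7 FPKM in TC and 24.0 to 32.2 in HLC against 53.1 to 58.2 in LTC and 46.8 to 60.0 in LC. The macrophage sums overlapped between altitudes, from 85.3 to 180 FPKM at 3300 m and from 84.5 to 136 at 670 m. Neuron markers summed to 7.54 to 21.7 FPKM at 3300 m and to 21.3 to 67.6 at 670 m, and 1 HLC lung library reached 54.9 FPKM of cardiomyocyte markers. Only 2 of the 9 neuron markers had a mean of at least 1 FPKM in lung. STMN2 led them with a median of 15.7 FPKM, where the median of the sum was 21.5. How these marker sums bear on the lung values of BFAR and SDF2L1 was not tested.

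In brain and heart BFAR gave no call. The altitude difference was -0.17 in brain (95% interval -0.37 to 0.03, adjusted p = 0.37) and -0.22 in heart (95% interval -0.54 to 0.10, adjusted p = 0.97), where 0.0193% of genes passed. In heart the TC libraries had 2.90, 2.74 and 3.28 FPKM, all below the LTC libraries with 4.58, 4.12 and 5.73. The HLC libraries had 3.86, 3.69 and 4.86 and the LC libraries 5.25, 2.86 and 3.46. How many heart genes have TC below LTC in this way was not counted. The difference between TC and LTC was -0.54 (adjusted p = 0.20), and the interaction was -0.65 (adjusted p = 0.19). Both passed in the fit of all 48 libraries (adjusted p = 0.0080 and 0.016), which takes its estimate of spread from all tissues.

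**Figure D2:**
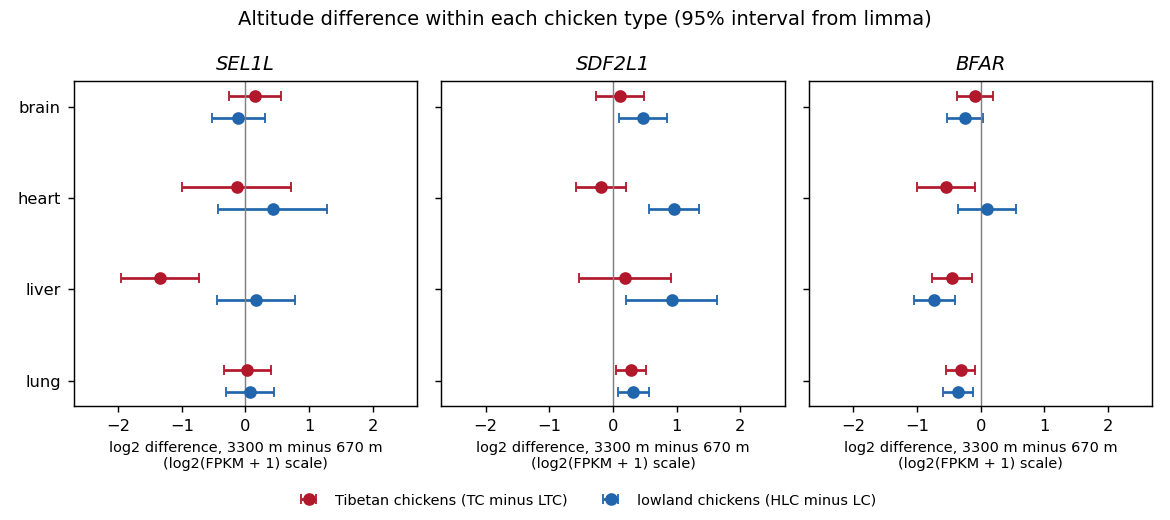
Log2 difference between 3300 m and 670 m (x axis, log2(FPKM + 1) scale) for SEL1L, SDF2L1 and BFAR in brain, heart, liver and lung (y axis), within Tibetan chickens (red) and lowland chickens (blue), with unadjusted 95% intervals from limma. In liver the SEL1L intervals of the 2 types lie apart (-1.35 in Tibetan and 0.16 in lowland chickens), in heart those of SDF2L1 do (-0.19 and 0.96), and BFAR lies below 0 for both types in liver and lung.

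The chicken type comparison gave no call for any of the 3 genes in brain, heart or lung. The smallest adjusted p was 0.42, for SDF2L1 in heart at a log2 difference of -0.23. Few genes passed at all there, with 0.00861% in brain, 0.00964% in heart and 0.0431% in lung. In liver BFAR differed by 0.18 between types (adjusted p = 0.26), and this passed after quantile normalization, as did its difference of 0.32 between TC and HLC. The interaction was not called for any of the 3 genes in brain or lung, where 0.0344% and 0.509% of genes passed.

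The 3 genes did not move as a unit across libraries. With each tissue mean subtracted, Pearson's r over the 48 libraries was 0.45 between SEL1L and SDF2L1, 0.14 between SEL1L and BFAR and -0.29 between SDF2L1 and BFAR. Within liver (12 libraries) these values were 0.62, 0.10 and -0.53, and within lung they were 0.09, 0.08 and -0.63. Within heart they were 0.32, 0.36 and 0.36, and within brain -0.54, -0.35 and -0.30. The points share tissue, group and library scaling, so r is given as a description.

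Other genes of ER pathways were taken from 5 lists of ER functions with 122 symbols beside the 3 genes, of which 20 could be matched in the table. All 20 were tested in brain, heart and lung and 18 in liver. For altitude, 3 were called higher and 8 lower in liver, where 9.74% and 41.6% of all genes were, with a median log2 difference of -0.18 against -0.25 for all genes. In lung 1 was called higher and 4 lower, where 5.57% and 11.6% of all genes were, with a median of -0.01 against -0.04. Brain and heart had no call among them in limma, with 0 genes in brain and 1 in heart at an unadjusted p under 0.05. Only 20 of 122 could be followed, all through the study's list of positively selected genes, so the counts stand for these genes and not for the pathways.

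Within ER-associated degradation, 5 further genes had a symbol in the table, and not all of them fell. PSMD14 stood at 0.04 for altitude in liver (adjusted p = 0.74 in limma) and at 0.05 in lung (adjusted p = 0.72). Those of the 5 not described here were not called for altitude in any tissue where they were tested. TRIM13, a ubiquitin ligase of the ER membrane, fell with altitude in liver by 0.62 on the log2 scale (adjusted p = 0.0034) and in lung by 0.43 (adjusted p = 0.028), where the liver call was lost after quantile normalization (adjusted p = 0.065) and the lung call without any 1 of HLC replicates 1 and 2, LC replicate 3, LTC replicates 2 and 3 and TC replicate 2 (adjusted p up to 0.068). UBAC2, a membrane protein of the ER with a ubiquitin-associated domain, fell by 0.46 in liver (adjusted p = 0.0099, but 0.089 after upper quartile scaling) and by 0.32 in lung (adjusted p = 0.013). ERLIN1, part of an ER membrane complex that binds degradation substrates, fell by 0.40 in liver (adjusted p = 0.0090), a call lost with both scalings and in the fit of all 48 libraries (adjusted p = 0.23, 0.11 and 0.062).

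Among genes of folding and glycosylation, DAD1, a subunit of the oligosaccharyltransferase that attaches N-glycans in the ER, rose in liver with altitude by 0.80 (adjusted p = 0.00014). ERO1LB, an oxidase for disulfide formation, rose in liver by 0.39 (adjusted p = 0.039), and only LC replicate 3, LTC replicate 3 and TC replicate 3 could each be left out without losing the call, which was also lost with the replicate block (adjusted p = 0.059) and with no filter (adjusted p = 0.053). UGGT2, related to the glucosyltransferase that senses folding, fell in lung by 0.60 (adjusted p = 0.030), a call lost after quantile normalization (adjusted p = 0.073) and without any 1 of HLC replicate 2, LC replicates 1 and 3, LTC replicates 2 and 3 and TC replicates 1 and 2. The other glycosylation genes, STT3B, PMM2 and DDOST, were not called for altitude in any tissue.

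Only 2 genes of the unfolded protein response list had a symbol. MBTPS1, the site-1 protease that cleaves ATF6, fell with altitude in liver by 0.62 (adjusted p = 0.00080) and in lung by 0.34 (adjusted p = 0.018), the latter lost without LTC replicate 3 (adjusted p = 0.051). ATF3, a transcription factor induced by many stresses, rose by 1.06 in liver (adjusted p = 0.024) and by 1.26 in lung (adjusted p = 0.00054), but both calls were lost in the fit of all 48 libraries (adjusted p = 0.087 and 0.10), and the liver call without LTC replicate 2 or TC replicate 2 (0.70 at the lowest).

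Of the export genes, SEC24B and SEC24A, cargo adaptors of COPII vesicles, fell with altitude in liver by 0.44 (adjusted p = 0.0032) and 0.53 (adjusted p = 0.0069), and MIA3, which loads large cargo such as collagen at ER exit sites, fell by 0.57 (adjusted p = 0.0054). The SEC24B call was lost after quantile normalization (adjusted p = 0.32), the SEC24A call after upper quartile scaling (adjusted p = 0.094) and the MIA3 call after both (adjusted p = 0.080 and 0.057). FAM134C, an ER-phagy receptor, fell by 0.27 (adjusted p = 0.021), close to the median of all genes, and this call was lost with both scalings (adjusted p = 0.17 and 0.60) and without LC replicate 3 (adjusted p = 0.053). MIA3 and SEC24B were also the 2 list genes called lower in the type comparison of liver, at -0.64 (adjusted p = 0.0205) and -0.37 (adjusted p = 0.036), where 8.58% of all genes were called lower and the median of the 18 was -0.13 against -0.10 for all genes. The same 2 were called lower in the liver interaction, at -1.08 (adjusted p = 0.029) and -0.64 (adjusted p = 0.049), where 10.1% of all genes were called lower, with a median of -0.25 over the list and -0.20 over all genes. All 4 of these calls were lost after quantile normalization, the MIA3 type call without TC replicate 2, the MIA3 interaction without any 1 library other than HLC replicate 1, LTC replicate 3 and TC replicate 1, and both of SEC24B without any 1 library other than TC replicate 1. The replicate block ended both interaction calls (adjusted p = 0.052 for MIA3 and 0.058 for SEC24B), upper quartile scaling ended all 4, and SEC24B lost its interaction also with no filter, no trend and in the fit of all 48 libraries, and its type call with no filter. No list gene was called for type or interaction in brain, heart or lung.

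**Figure D3:**
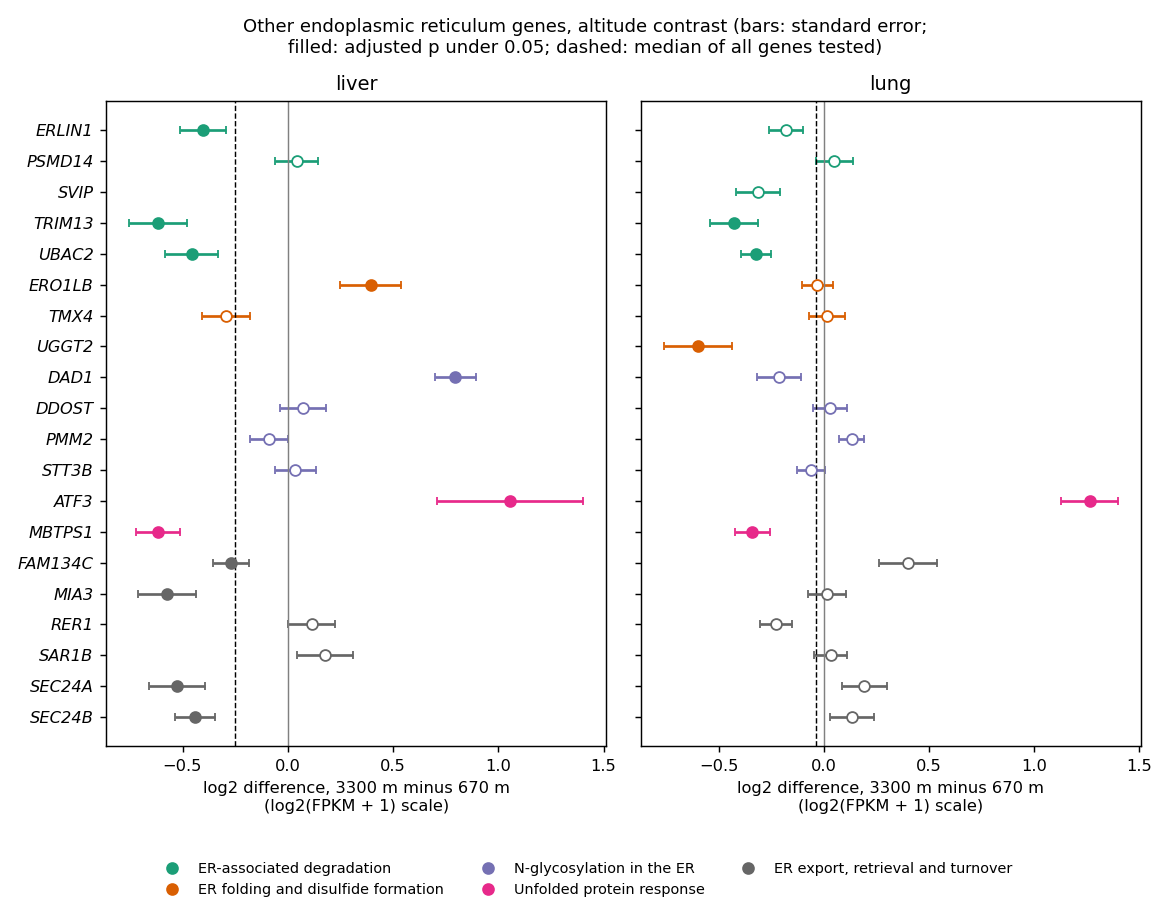
Altitude difference (x axis, log2(FPKM + 1) scale, 3300 m minus 670 m) of the other ER genes (y axis) in liver and lung, coloured by list, with bars of 1 standard error. Filled points have an adjusted p under 0.05, and the dashed line is the median of all genes tested, -0.25 in liver and -0.04 in lung. DAD1 and ATF3 lie to the right in liver and MBTPS1 and TRIM13 to the left, and 2 genes without a point in liver did not pass the filter there.

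The genes most like each of the 3 were looked up among 1089 genes with a symbol, by Pearson's r over the 48 libraries with each tissue mean subtracted. Differences between groups, such as the low SEL1L of the TC livers, and library scaling stay in these values. They are given as a description. SEL1L was followed most closely by IGF2R (r = 0.902), TBC1D9B (0.901) and FAM91A1 (0.872), where the median r of all genes compared was 0.249. For SDF2L1 these were ABCF2 (0.662), WDR75 (0.635) and GSK3B (0.622), with a median of 0.0392, and for BFAR they were ITGB1BP1 (0.770), RBPJ (0.743) and CNOT6 (0.740), with a median of 0.194. With tissue differences left in, the closest genes were MON2 and XRN1 for SEL1L (0.888 and 0.868), LGALS8, DDX28 and NUP50 for SDF2L1 (0.809, 0.781 and 0.765), and BLIMP-1, ALPK1 and DOCK2 for BFAR (0.939, 0.937 and 0.935).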

How the data were processed

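The 48 libraries (4 tissues, 4 groups, n = 3) were all used, and every column of the table was read. Per the labels, total RNA was taken with TRIzol and sequenced from Illumina TruSeq libraries. TopHat, Cufflinks 2.2.1 and the galGal4 assembly are named by the submitters' processing notes. Annotation release and options: not given in the sources used here. The deposited values are FPKM per gene, as the authors computed them, so read depth is unknown, counting error cannot be stated, and no count model was used. The study's article describes genome resequencing and gives no method for these libraries.

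A gene was tested in a tissue if it reached 1 FPKM in 3 or more of the 12 libraries, which left 11614 genes for brain, 10376 for heart, 9944 for liver and 11601 for lung. On log2(FPKM + 1), group means were fitted by limma 3.58.1 (R 4.3.3) with a trend in the variance. Tests were 2-sided, and a gene was called at an adjusted p under 0.05 (Benjamini-Hochberg, all genes of that tissue). Tissues were compared in 1 fit of 48 libraries. Where libraries of groups are said to lie apart, this describes the gene named, and the share of all genes that do so was not counted. The procedure was tested on simulated data with independent noise and no shift of whole libraries, so that test does not cover the effect of library scaling.

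The 3 genes and the lists were chosen with earlier results of these data known. Named are the 3 genes, of the ER lists up to 4 called genes with the smallest p in each tissue and comparison, the 3 genes most like each of the 3, and the leading marker of each tissue. ERLIN1, PSMD14, ERO1LB, UGGT2, SEC24A, FAM134C, STT3B, PMM2 and DDOST, the liver altitude values of ATF3, UBAC2 and MIA3 and the liver markers FTCD, HAAO, LCAT, SLC25A47 and OTC fall outside this rule and were named after their values were seen. Of the genes that this rule names, 2 are not reported here. Symbols cover 6.91% of the IDs and come only from the study's list of positively selected genes. Alternatives were a pseudocount of 0.1 FPKM, no filter, a mean of at least 5 FPKM, quantile and upper quartile scaling, no trend, a replicate block, 1 fit of all libraries and leaving out each library. Replicate numbers are shared by the groups, but same-numbered libraries of a tissue deviated together (every r over 0.1) only between TC and LTC in brain, so the block was kept as an alternative. Between tissues of a group they did so in some pairs of tissues (TC brain with liver, brain with lung and liver with lung, HLC brain with heart and brain with liver, LTC brain with liver and heart with lung, and LC brain with heart), and the comparisons of tissues treat the 48 libraries as independent.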

Additional observations from a re-analysis of the deposited data

Results flagged for a closer look

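The altitude difference of SEL1L in liver was not alike in the 2 chicken types. It was -1.35 in Tibetan and 0.16 in lowland chickens on the log2 scale, and the test of the difference itself gave -1.51 (adjusted p = 0.030 in limma), which is lost under the alternatives given above. This test is built from the liver values by which SEL1L was chosen on the reading above. It cannot be taken as independent of that choice.

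The altitude difference of SDF2L1 in heart differed between the types as well, at -0.19 in Tibetan and 0.96 in lowland chickens. The test of this difference gave -1.15 (adjusted p = 0.042 in limma), and it is likewise lost after either rescaling of the libraries and without most single libraries.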

How the results depend on the processing

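Over 23 main results of the 3 genes, 174 combinations with an alternative other than leaving out a library were computed. The main results were taken from the comparisons of tissues, altitude, type and interaction. Simple differences between single groups were not counted, and changes in their calls are given above. A result stayed the same if it kept direction and side of the threshold, so results that were never called also count as the same. The liver type values of SEL1L and SDF2L1 were instead judged by direction and by a move smaller than the SD within groups. Of the 174, 148 stayed the same, 11 lost the call, 10 gained it and 5 turned direction. The turned ones were SEL1L between brain and heart (-0.20 quantile, -0.0553 upper quartile), BFAR between brain and heart (-0.60 and -0.32) and SEL1L between liver and lung (6.1e-05 quantile, and -0.0172 with no call after upper quartile scaling). SDF2L1 within Tibetan heart, a simple difference outside this count, also turned, to 0.0864 and 0.0435. Calls gained were SEL1L between brain and liver (-0.995 quantile, -0.89 upper quartile, -0.31 with the replicate block), SDF2L1 between liver and lung (0.88 and 0.91), SDF2L1 with altitude in liver (0.72, 0.76, and 0.55 with the replicate block and in the fit of 48 libraries) and the BFAR interaction in heart (-0.65 in the fit of 48 libraries). Calls lost were the SEL1L interaction in liver (-1.29 quantile, -1.39 upper quartile, -1.51 with no filter), SEL1L with altitude in liver (-0.38 and -0.40), the SDF2L1 interaction in heart (-0.65, -0.77, and -1.15 with no filter or the replicate block) and SDF2L1 with altitude in lung (0.30 in the fit of 48 libraries). The cause was not tested.

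Leaving out 1 library at a time gave -1.76 to -1.26 for the SEL1L interaction in liver, -0.72 to -0.47 for its altitude difference and -0.0330 to 0.388 for its difference between HLC and LC, which turned without LC replicate 1. For SDF2L1 it gave -1.29 to -1.01 (heart interaction), 0.40 to 0.74 (liver altitude), -1.11 to -0.47 (liver interaction), 0.24 to 0.34 (lung altitude), 0.20 to 0.40 (brain altitude) and 0.12 to 0.29 (liver to lung), for SEL1L -0.37 to -0.25 (brain to liver), and for BFAR 0.0717 to 0.159 (brain to heart). The replicate block changed no other main call of the 3 genes. Among all genes, calls for the heart interaction went from 289 to 24 (quantile), 19 (upper quartile), 20 (block), 36 (no filter) and 3025 (48 libraries), and from 1 without TC replicate 3 to 495 without LC replicate 3. Calls between TC and HLC in heart went from 680 to 166, 103 and 63 with quantile, upper quartile and block, and to 1 without HLC replicate 2. Single libraries moved the counts from 1390 to between 458 and 2005 (liver interaction), from 1091 to between 350 and 1601 (liver type), from 1986 to between 1168 and 2157 (lung altitude) and from 263 to between 33 and 593 (brain altitude). Higher and lower calls with altitude were 969 and 4136 in liver, 1780 and 1750 after quantile normalization and 1686 and 2579 after upper quartile scaling, and in lung 646 and 1340 against 900 and 1005. Filtering at a mean of 5 FPKM leaves BFAR out in brain and heart. Promoter motifs were not searched for want of a sequence table.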
